A study of Mus musculus with 10 samples.

Results

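The unfolded protein response and secretory genes are a set of 35 mouse genes for protein folding, stress signalling, degradation and translocation in the endoplasmic reticulum (ER). The members were chosen by symbol and matched to Ensembl gene identifiers in the GENCODE M21 annotation of the mouse genome build GRCm38. All 35 were found among the 49671 gene identifiers of the count tables, and all 35 passed the filter on low counts that left 19757 genes to test. Ddit3 carries a pair of identifiers in that annotation, of which ENSMUSG00000025408 on chromosome 10 was used.

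RNA was sequenced from 5 cell populations sorted by FACS from the mouse mammary gland, with 2 libraries per population. For basal cells (BC) and luminal cells (LC) the labels state no treatment, and replicate 2 of both carries the mark WT. The other 3 populations were Tomato-labelled and came from glands with ablation of the luminal cells: basal (TBC), hybrid (THC) and luminal (TLC). The labels give no mouse line, age, sorting markers, promoter behind the Tomato reporter or agent of the ablation. Every Tomato population is also an ablation population, so marking and ablation cannot be told apart. Whether replicates came from separate animals is not stated, so the p-values measure only the spread between these samples. In sorted bulk samples, fewer cells of a type and less RNA per cell cannot be told apart.

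The ER folds proteins that are bound for the membrane or for secretion, and the unfolded protein response adjusts its capacity. Unfolded protein draws the chaperone BiP, encoded by Hspa5, away from the sensors IRE1, PERK and ATF6. IRE1 then splices the Xbp1 mRNA, PERK slows translation and favours ATF4 and CHOP, and ATF6 is cut to release a transcription factor. The XBP1 and ATF6 arms act on chaperones and degradation genes, and a secretory epithelium such as the mammary gland relies on this machinery when it makes milk. Gene counts give the total Xbp1 mRNA and do not show its splicing.

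Library totals ran from 2757773 counts in THC replicate 1 to 13685674 in LC replicate 2. The summed level of 8 basal markers was 8962 to 15820 CPM (counts scaled to the library total) in BC and TBC, 4347 and 5055 in THC, 714 and 1135 in TLC and 92.8 and 170 in LC. For 8 luminal markers the sum was 6579 and 8289 CPM in LC, 3918 and 4802 in TLC, 2526 and 3526 in THC and 688 to 1328 in BC and TBC. Both sets were present in THC, the population labelled hybrid. LC replicate 1 stood apart in the sum of 12 plasma and B cell markers, 411 CPM there and 16.9 CPM in LC replicate 2. Most of that sum was Igkc, an antibody light chain, at 363 CPM in that library and 4.1 CPM in the other. Jchain was at 31.5 and 0.57 CPM. Every other marker of the list was at most 11.5 CPM in both LC libraries, with Prdm1 nearly level at 11.5 and 10.3 CPM. In BC replicates 1 and 2, Igkc was at 24.45 and 0.25 CPM and Jchain at 6.06 and 0.17 CPM. Plasma cells are rich in ER proteins. LC replicate 1 also exceeded LC replicate 2 in other sums. The 10 milk secretion genes summed to 1999 and 915 CPM, and the 10 endothelial markers to 339 and 150 CPM. The part of these cell types and genes in the LC values was not tested.

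Because XBP1 and ATF6 bind ER stress elements, the letters of these elements were sought in the RefSeq promoter windows of the members (build GRCm38.p6, 250 bases before to 50 bases after the gene start). Windows were found for 29 of the 35 members, and Derl2 has more than 1 among these 30 windows. The ER stress element, CCAAT then any 9 bases then CCACG, sought on both strands as all motifs were, was present in 9 of the 30 member windows and in 0.119% of all 32851 windows. The second form, ATTGG then any base then CCACG, was present in 2 of the 30 and in 0.0365% of all windows. The XBP1 motif TGACGTGG was found in 0 member windows and in 0.676% of all windows. The C/EBP-ATF motif TGATGCAA was found in 2, those of Chac1 and Herpud1, and in 0.895% of all windows. A match describes letters only, and several members are textbook examples on which these elements were defined. The lines give every match of the first pair of elements, read along the strand of the element, with the constant letters in capitals.
Hspa5, chr2:34772025-34772043: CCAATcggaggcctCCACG
Hsp90b1, chr10:86705638-86705656: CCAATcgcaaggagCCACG
Hsp90b1, chr10:86705533-86705551: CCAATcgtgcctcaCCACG
Dnajc3, chr14:118937827-118937845: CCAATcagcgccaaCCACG
Calr, chr8:84847075-84847093: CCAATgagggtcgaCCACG
Canx, chr11:50325800-50325818: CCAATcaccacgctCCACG
Pdia6, chr12:17266491-17266509: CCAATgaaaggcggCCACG
Creld2, chr15:88819520-88819538: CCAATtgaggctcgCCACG
Syvn1, chr19:6046532-6046550: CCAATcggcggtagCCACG
Derl3, chr10:75893242-75893260: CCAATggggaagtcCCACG
Dnajb11, chr16:22857852-22857862: ATTGGcCCACG
Herpud1, chr8:94386377-94386387: ATTGGgCCACG

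The elements of Calr, Creld2 and Derl3 and the second of Hsp90b1 lay on the strand opposite to the gene, and that of Dnajb11 lay just after the gene start. Full upstream windows are shown for Herpud1, Dnajc3 and Derl3, since these 3 genes differed between the luminal populations. Each runs 5′ to 3′ along the gene's strand, the plus strand in all 3, with the constant letters of the element in capitals. The nearest end of the element lay 41 bases before the start of Herpud1, 86 before that of Dnajc3 and 137 before that of Derl3. In the Derl3 window the element appears as its reverse complement.
Herpud1, chr8:94386179-94386428: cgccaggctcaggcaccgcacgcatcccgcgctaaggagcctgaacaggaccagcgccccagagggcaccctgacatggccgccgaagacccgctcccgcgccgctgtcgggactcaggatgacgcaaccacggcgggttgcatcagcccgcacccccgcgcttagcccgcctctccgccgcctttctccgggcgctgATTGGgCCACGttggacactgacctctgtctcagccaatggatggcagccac
Dnajc3, chr14:118937682-118937931: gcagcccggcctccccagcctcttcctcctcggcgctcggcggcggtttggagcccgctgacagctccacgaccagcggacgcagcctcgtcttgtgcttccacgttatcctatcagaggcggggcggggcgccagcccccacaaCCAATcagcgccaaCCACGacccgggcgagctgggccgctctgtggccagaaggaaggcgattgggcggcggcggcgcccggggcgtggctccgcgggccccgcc
Derl3, chr10:75893148-75893397: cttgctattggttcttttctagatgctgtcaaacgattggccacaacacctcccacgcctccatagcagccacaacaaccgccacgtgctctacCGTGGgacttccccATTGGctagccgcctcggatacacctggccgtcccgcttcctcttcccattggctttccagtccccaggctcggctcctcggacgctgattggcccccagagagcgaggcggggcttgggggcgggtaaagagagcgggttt

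Per kilobase of exon, the scale on which levels of different genes can be compared, Hspa5 was the highest member. Its mean level was 444 CPM per kilobase in LC, 241 in BC, 235 in THC, 227 in TLC and 181 in TBC. Hsp90b1, Calr, Pdia3 and P4hb followed, with means over the 5 populations of 163, 160, 156 and 127 CPM per kilobase. These genes encode GRP94, calreticulin and a pair of disulfide isomerases, all abundant folding proteins of the ER lumen. At the low end, Chac1 averaged 1.22 CPM per kilobase, Derl3 2.14 and Trib3 2.29.

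The mean level was highest in LC for 22 members, in TBC for 5, in BC for 3, in THC for 3 and in TLC for 2. It was lowest in BC for 17 members, in TBC for 11, in TLC for 6, in THC for 1 and in LC for 0. A difference among the 5 populations passed edgeR's quasi-likelihood test (Benjamini-Hochberg adjusted p under 0.05) for 12 of 35 members, where 26.7% of all genes tested passed. The 12 were the chaperone genes Hyou1 and Dnajc3, the sensor gene Ern1, the transcription factor genes Xbp1, Creb3l1, Creb3l2 and Ddit3, the glutathione-degrading enzyme gene Chac1, and the degradation genes Herpud1, Sel1l, Derl2 and Derl3. The smallest adjusted p was that of Herpud1, at 0.00054, followed by Derl3 at 0.00186, Creb3l2 at 0.00275 and Dnajc3 at 0.00532. These 4 passed under each of the 15 alternatives tried. The calls of the other members were lost without LC replicate 1, a fit that leaves 1 LC library. Several were also lost without BC replicate 2 or TBC replicate 2. The share of all genes called in these fits is not given here, so the losses have no background.

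**Figure D1:**
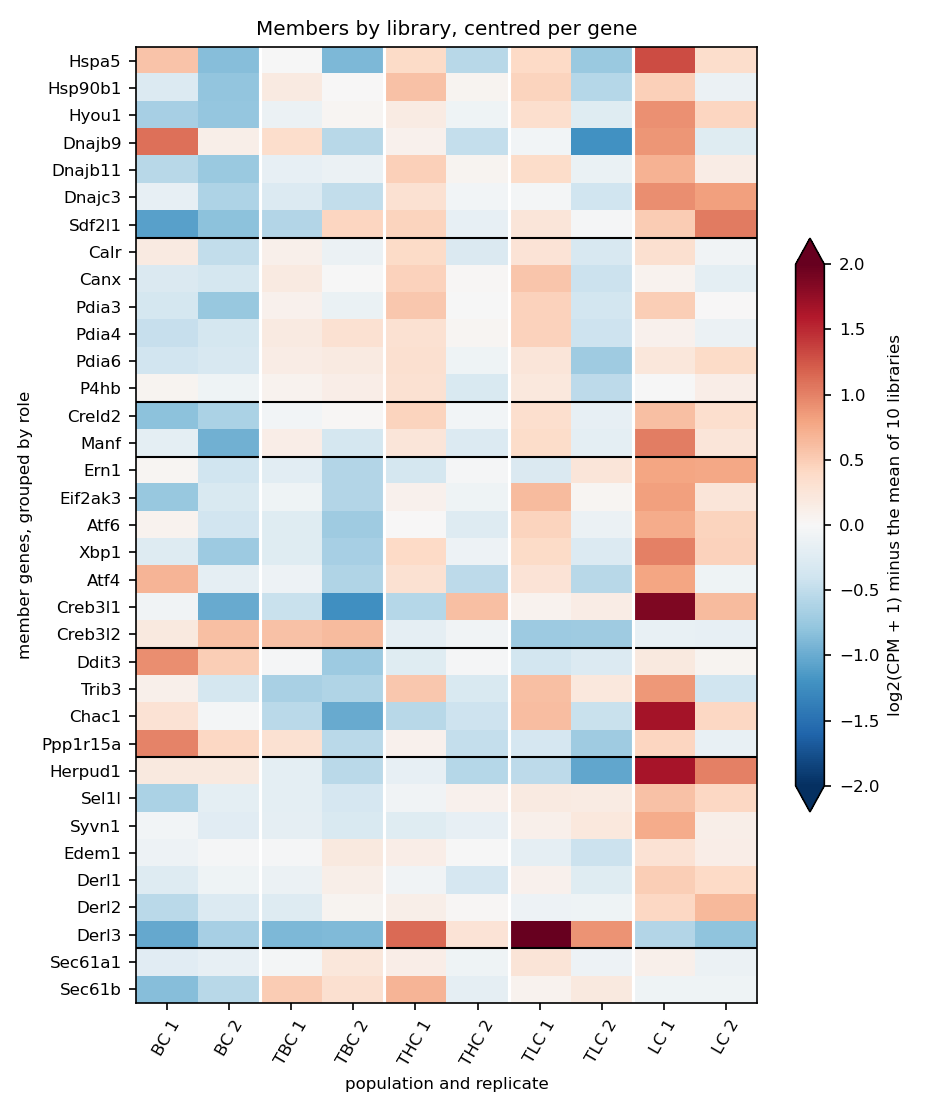
Level of each of the 35 members (y axis, grouped by role) in each of the 10 libraries (x axis), as log2(CPM + 1) minus that gene's mean over the 10 libraries. The LC columns hold the most red cells, Derl3 is red in THC and TLC, and Creb3l2 is red in BC and TBC.

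Luminal against basal cells, both with no treatment stated, asks how the ER machinery differs between the lineages. LC had more mRNA than BC for 13 of the 35 members and less for 0 (edgeR's quasi-likelihood test, Benjamini-Hochberg adjusted). Over all genes tested, 11.5% were higher and 12.5% lower, 24% in all. The median log2 fold change was 0.72 over the members and -0.04 over all genes, and 31 of 35 members were positive. The luminal excess included 4 of the 7 lumenal chaperones and co-chaperones, the secreted stress proteins and part of the degradation machinery. It also included the genes of the sensors IRE1 and PERK and total Xbp1. The calls of these sensor genes, Xbp1, Dnajb11, Creb3l1, Manf, Herpud1 and Sel1l depended on keeping LC replicate 1. All of these calls but those of Eif2ak3 and Sel1l were also lost without BC replicate 2. No lectin chaperone, disulfide isomerase or CHOP output gene passed.

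Of the 7 lumenal chaperones and co-chaperones, 4 were higher in LC and none was lower. Hyou1, a large HSP70-family chaperone and exchange factor for BiP, was at 76.5 and 70.6 CPM in BC and at 230.1 and 165 CPM in LC. The LC libraries lay well above the BC libraries, a log2 fold change of 1.43 (SE 0.25, adjusted p = 0.00153). Dnajc3, the BiP co-chaperone p58IPK that also inhibits PERK, was at 153 and 111 CPM in BC and 326 and 303 CPM in LC. Its log2 fold change was 1.26 (SE 0.24, adjusted p = 0.00256), with no overlap between the populations. Sdf2l1, a partner of the DnaJ protein ERdj3, was a low-count gene at 2.93 and 3.73 CPM in BC and 10.9 and 16.1 CPM in LC. It differed by 1.999 on the log2 scale (SE 0.45, adjusted p = 0.00727). Dnajb11, which encodes ERdj3 itself, stood at 24.1 and 21.1 CPM in BC and 58.5 and 39.7 CPM in LC, a log2 fold change of 1.12 (adjusted p = 0.0105).

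Hspa5, the most abundant member, did not pass. Its levels were 1486 and 555 CPM in BC and 2473 and 1279 CPM in LC. The LC replicate 2 value lay below BC replicate 1, so the populations overlapped, and the log2 fold change of 0.88 had an SE of 0.59 (adjusted p = 0.341). Within the library numbers 44 to 48 the difference was 0.74 and within 80 to 84 it was 1.20. Hsp90b1, which encodes GRP94, had levels of 522 and 365 CPM in BC and 879 and 581 CPM in LC (adjusted p = 0.187). Dnajb9, whose product ERdj4 represses IRE1, was at 212 and 106 CPM in BC and 181 and 82.7 CPM in LC, again with overlap.

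Both secreted ER stress proteins were higher in LC. Creld2, released by stressed cells, was at 10.4 and 12.0 CPM in BC and 29.6 and 24.3 CPM in LC (log2 fold change 1.26, adjusted p = 0.00724). Manf, a stress-induced trophic factor held back by BiP, was at 51.6 and 30.1 CPM in BC and 122 and 70.6 CPM in LC. Its log2 fold change was 1.25 (adjusted p = 0.028).

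Among the 7 sensors and transcription factors, 4 were higher in LC. Ern1, which encodes IRE1 alpha, was at 61.8 and 45.05 CPM in BC and 104 and 103 CPM in LC (log2 fold change 0.96, adjusted p = 0.016). Eif2ak3, the gene of PERK, was at 21.5 and 29.8 CPM in BC and 66.5 and 44.3 CPM in LC (log2 fold change 1.10, adjusted p = 0.0202). Atf6 had levels of 111.5 and 80.9 CPM in BC and 179 and 144 CPM in LC, which do not overlap, but did not pass (log2 fold change 0.75, adjusted p = 0.0644). Total Xbp1 mRNA was at 107 and 76.4 CPM in BC and 257 and 176 CPM in LC, a log2 fold change of 1.24 (SE 0.31, adjusted p = 0.012). Creb3l1, an ER-anchored transcription factor known as OASIS, was at 6.45 and 2.88 CPM in BC and 27.5 and 11.1 CPM in LC. It had the greatest log2 fold change of the members, 2.09, with an SE of 0.59 (adjusted p = 0.0255), and the value was 1.30 without LC replicate 1, 1.57 without BC replicate 2 and 2.73 without BC replicate 1. Its relative Creb3l2 was at 177 and 236 CPM in BC and 139 in both LC libraries, a log2 fold change of -0.57 (adjusted p = 0.0578). Atf4, whose activity depends mostly on translation, gave 428 and 234 CPM in BC and 458 and 249.6 CPM in LC (adjusted p = 0.905).

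No gene of the PERK-ATF4-CHOP output passed in this comparison. Ddit3, the gene of CHOP, was at 49.5 and 36.1 CPM in BC and 29.2 and 26.4 CPM in LC, with LC below BC (log2 fold change -0.62, adjusted p = 0.139). Ppp1r15a, the GADD34 phosphatase subunit that restores translation, was at 454 and 301 CPM in BC and 304 and 204 CPM in LC (adjusted p = 0.275). Both are also induced by other stresses. The 10 immediate-early genes, which cell isolation can raise, summed to 19810 and 20790 CPM in BC and 14510 and 15060 CPM in LC. Of these, Jun and Atf3 had higher means in LC (3012 and 1118 CPM) than in BC (2409 and 1019 CPM), and the others lower means. The part of these genes in the Ddit3 and Ppp1r15a values was not tested. Chac1, at 2.15 and 1.53 CPM in BC and 7.25 and 2.44 CPM in LC, and Trib3, at 4.89 and 3.31 against 8.98 and 3.15 CPM, had few counts and unequal LC libraries. Exons of Ddit3 overlap those of Mars on the other strand, and the strand setting of the counting is not given in the sources used here.

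In ER-associated degradation, which returns misfolded proteins to the cytosol, 3 of 7 genes were higher in LC. Herpud1, which organises the ubiquitin ligase complex of the ER membrane, was at 86.1 and 85.8 CPM in BC and 237 and 152 CPM in LC (log2 fold change 1.18, SE 0.27, adjusted p = 0.00781). Sel1l, the adaptor of the ligase HRD1, was at 104 and 140.3 CPM in BC and 242 and 216 CPM in LC (log2 fold change 0.91, adjusted p = 0.00795). Derl2, a channel component, was at 20.7 and 25.03 CPM in BC and 41.0 and 48.5 CPM in LC (log2 fold change 0.96, adjusted p = 0.00866). Derl2 has 231 exon bases in common with Mis12 on the other strand. The remaining 4 were Derl1, Syvn1 (the gene of HRD1), Edem1, a mannosidase-like protein that marks glycoproteins for disposal, and Derl3. Their log2 fold changes were 0.62, 0.60, 0.28 and 0.19, and none passed.

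The 6 lectin chaperone and disulfide isomerase genes had a median log2 fold change of 0.34, and 0 passed. Pdia3, the glycoprotein isomerase ERp57, came closest at 372 and 281 CPM in BC and 666 and 477 CPM in LC (log2 fold change 0.81, adjusted p = 0.0981). P4hb, the classical disulfide isomerase, was nearly level at 374 and 339.6 CPM in BC and 358 and 391.7 CPM in LC. Of the Sec61 channel, through which new chains enter the ER, Sec61a1 gave 0.19 and Sec61b 0.66 on the log2 scale, and neither passed.

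Both LC libraries lay above both BC libraries for 25 members and below for 2, Creb3l2 and Ddit3, where 30% and 30.3% of all genes did so. The difference was positive within both library-number series for 28 members, negative within both for 4 and of unlike sign for 3. These signs were not counted over all genes, so they have no background. Leaving out any LC or BC library lowered the share of all genes that passed, which was 24% with all libraries. The median log2 fold change of the members was 0.55 without LC replicate 1 and 0.64 without BC replicate 2. It was 0.84 without BC replicate 1 and 0.88 without LC replicate 2. The count of 13 fell to 5 without LC replicate 1, the library with plasma cell transcripts, and to 7 without BC replicate 2. Those 5 were Hyou1, Dnajc3, Sdf2l1, Creld2 and Derl2, of which Hyou1, Dnajc3 and Creld2 passed under all 15 alternatives. The 7 were the same genes with Eif2ak3 and Sel1l. Leaving out BC replicate 1 ended the calls of Eif2ak3, Sel1l and Derl2 (adjusted p = 0.127, 0.0687 and 0.0578), and leaving out LC replicate 2 those of Ern1, Sdf2l1 and Derl2 (0.0737, 0.0542 and 0.0649).

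**Figure D2:**
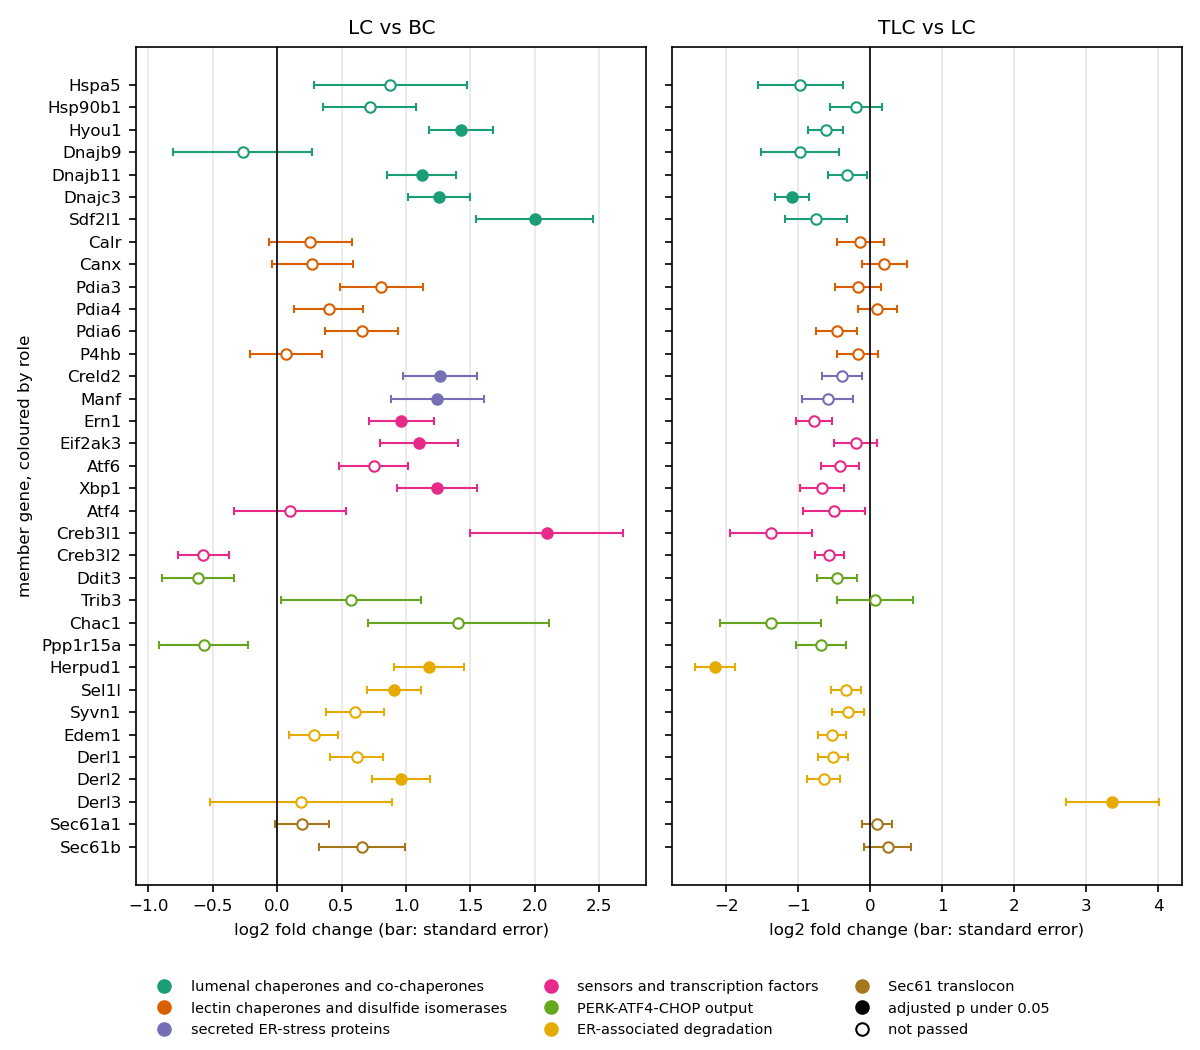
Log2 fold change of the 35 members (y axis, coloured by role) for LC against BC and for TLC against LC, with bars of 1 standard error. Filled points have an adjusted p under 0.05. In LC against BC 31 points lie right of 0, and in TLC against LC 29 lie left of it while Derl3 stands alone at 3.36. LC is the reference of the second panel and the numerator of the first, so the panels share its libraries.

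Tomato luminal cells after ablation were then compared with LC, for which the labels state no treatment. In TLC, Herpud1 and Dnajc3 were lower than in LC and Derl3 was higher (edgeR's quasi-likelihood test, Benjamini-Hochberg adjusted). These were 1 member higher and 2 lower, where 4.46% of all genes tested were higher and 3.77% lower, 8.22% in all. The log2 fold change was negative for 29 of 35 members, with a median of -0.46 against 0.00 over all genes. This comparison shares its LC libraries with LC against BC, including LC replicate 1.

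Herpud1 was at 237 and 152 CPM in LC and at 51.8 and 36.0 CPM in TLC. Every TLC value lay under every LC value and also under the BC level of about 86 CPM. The log2 fold change was -2.15 (SE 0.28, adjusted p = 0.0013), or 4.45-fold lower. It passed under all 15 alternatives, with adjusted p up to 0.0138, and it was -1.80 without LC replicate 1.

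Dnajc3 was at 326 and 303 CPM in LC and 167 and 130 CPM in TLC, close to the BC range of 111 to 153 CPM. Its log2 fold change was -1.09 (SE 0.24, adjusted p = 0.0171). This call was lost on leaving out LC replicate 1, LC replicate 2, TLC replicate 1 or TLC replicate 2, with adjusted p of 0.0678, 0.0641, 0.0526 and 0.0955.

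Derl3, the member of the Derlin family known for expression in secretory cells, went the other way. It was at 1.41 and 1.07 CPM in LC and at 20.1 and 5.72 CPM in TLC. Both TLC libraries were above both LC libraries, but they differed from each other by 1.78 on the log2 scale. The log2 fold change was 3.36 (SE 0.64, adjusted p = 0.00942), or 10.3-fold. Without TLC replicate 1 it was 2.21 (adjusted p = 0.085), without TLC replicate 2 it was 4.02 (adjusted p = 0.00465), and without LC replicate 2 it was 3.16 (adjusted p = 0.0765). Derl3 is also abundant in plasma cells. The 12 plasma and B cell markers summed to 69.3 and 20.7 CPM in TLC, with Igkc and Jchain at no more than 0.999 and 0.175 CPM. Prdm1, also expressed outside the B lineage, was at 14.5 and 8.63 CPM in TLC and 11.5 and 10.3 CPM in LC. Pou2af1, a transcriptional coactivator of B cells, was at 52.3 and 8.17 CPM in TLC, 41.4 and 15.0 in THC, 4.57 and 4.75 in TBC and at most 0.93 in BC and LC.

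The other members did not pass. Ern1 came closest at 49.0 and 71.3 CPM in TLC against 104 and 103 CPM in LC (log2 fold change -0.78, adjusted p = 0.0791). Xbp1 was at 167 and 106 CPM in TLC, below both LC values (log2 fold change -0.67, adjusted p = 0.223). Creb3l1 was at 7.18 and 7.63 CPM against 27.5 and 11.1 CPM (adjusted p = 0.18), and Hspa5 was at 1321 and 598 CPM against 2473 and 1279 CPM (adjusted p = 0.4). By role, the median log2 fold change was -0.75 for lumenal chaperones, -0.57 for sensors and transcription factors, -0.57 for the CHOP output, -0.52 for degradation, -0.49 for secreted stress proteins, -0.15 for lectin chaperones and isomerases and 0.17 for Sec61. Other marker sums differed between the same libraries. The 10 immediate-early genes summed to 7060 and 8618 CPM in TLC against 14510 and 15060 CPM in LC, and 8 cell division genes to 1115 and 842 against 61.6 and 113 CPM. Their part in the member values was not tested.

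Both TLC libraries lay below both LC libraries for 14 members and above for 2, Derl3 and Sec61b, where 24.9% and 24.3% of all genes did so. Within both library-number series the difference was negative for 26 members, positive for 3 and of unlike sign for 6, again not counted over all genes. Leaving out any LC or TLC library lowered the share of all genes that passed, which was 8.22% with all libraries. The number called was 1, Herpud1 alone, without TLC replicate 1 or without LC replicate 2.

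**Figure D3:**
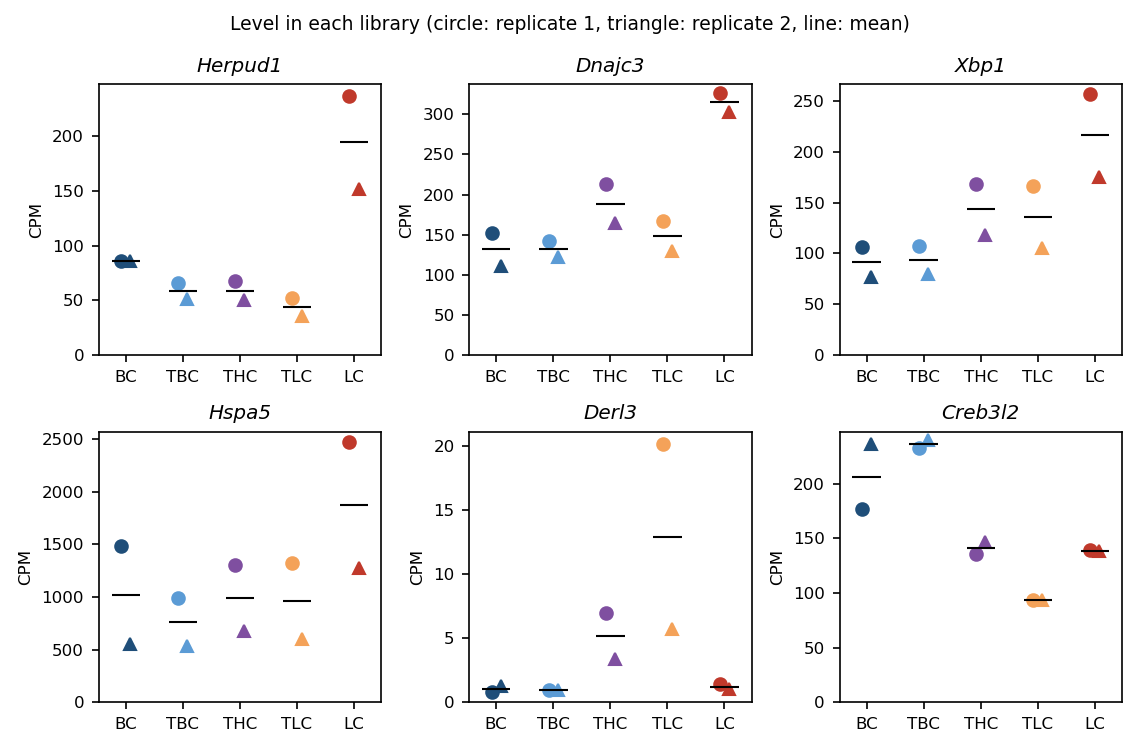
Level in CPM (y axis) of Herpud1, Dnajc3, Xbp1, Hspa5, Derl3 and Creb3l2 in each population (x axis), with circles for replicate 1, triangles for replicate 2 and a line at the mean. Herpud1 and Dnajc3 are highest in both LC libraries, Derl3 is highest in TLC and next in THC, Creb3l2 is lowest in TLC, and the Hspa5 replicates differ in every population.

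Between TBC and BC, 0 of the 35 members passed edgeR's quasi-likelihood test, and 0% of all genes tested passed in either direction. At an unadjusted p under 0.05 there were 8 members and 1725 genes. DESeq2 also called 0 members, and edgeR without the low-count filter called 1, Ddit3. Over all genes these settings called 1.03% and 1.14%. The median log2 fold change was 0.14 over the members and -0.03 over all genes.

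Values by role were not of 1 sign. Both TBC libraries lay above both BC libraries for 13 members and below for 5, where 20% and 21.4% of all genes did so. The 5 below were Ddit3, Trib3, Chac1, Ppp1r15a and Herpud1, which comprise the whole CHOP output list and 1 degradation gene. Ddit3 was at 49.5 and 36.1 CPM in BC and 25.05 and 15.0 CPM in TBC (log2 fold change -1.10, SE 0.28, adjusted p = 0.304). Ppp1r15a was at 281 and 156 CPM in TBC against 454 and 301 in BC (log2 fold change -0.79, adjusted p = 0.556). The summed immediate-early genes were at 15250 and 11860 CPM in TBC, also below BC, and their part in these values was not tested. Chac1 was at 0.79 and 0.29 CPM in TBC, only a few counts.

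The 13 above were mostly folding and translocation genes, and none passed. Sec61b, a small subunit of the Sec61 channel, was at 6.45 and 8.14 CPM in BC and 18.1 and 15.7 CPM in TBC (log2 fold change 1.20, SE 0.33, adjusted p = 0.347). Hyou1 was at 112 and 126 CPM in TBC against 76.5 and 70.6 CPM in BC (log2 fold change 0.69, adjusted p = 0.477). Pdia4, the isomerase ERp72, was at 183 and 199.5 CPM against 117 and 126 CPM (log2 fold change 0.65, adjusted p = 0.543).

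Tomato marking and ablation change together in TLC against LC and in TBC against BC. The luminal difference minus the basal difference, TLC against LC minus TBC against BC, was tested as an interaction. It passed for 0 of 35 members by edgeR's quasi-likelihood test, where 0.552% of all genes were higher and 0.359% lower (0.911% in all). At an unadjusted p under 0.05 there were 12 of 35 members and 2101 of all 19757 genes. DESeq2 called 2 members, Herpud1 and Derl3, where it called 2.56% of all genes. Without the low-count filter edgeR called 3, Hyou1, Herpud1 and Derl3. The share of all genes under that filter setting is not given here, so its count has no background. The interaction value was negative for 29 members, with a median of -0.56 on the log2 scale against 0.05 over all genes. Herpud1 came nearest at -1.59 (SE 0.38, adjusted p = 0.0945), followed by Hyou1 at -1.31 (adjusted p = 0.133), Derl3 at 3.54 (adjusted p = 0.149) and Dnajc3 at -1.09 (adjusted p = 0.21).

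After ablation, TLC and TBC differed in a pair of members. Derl3 was at 0.95 CPM in both TBC libraries and at 20.1 and 5.72 CPM in TLC, a log2 fold change of 3.73 (SE 0.67, adjusted p = 0.00333 by edgeR). Without TLC replicate 1 it was 2.58 and without TLC replicate 2 it was 4.39. Creb3l2, a transcription factor that raises secretory capacity, was at 233 and 240.2 CPM in TBC and 93.5 and 93.8 CPM in TLC. Its replicates were nearly equal in both populations, and the log2 fold change was -1.34 (SE 0.20, adjusted p = 0.00124). That is 1 member higher and 1 lower, where 5.59% of all genes were higher and 8.02% lower (13.6% in all), and both passed under all 15 alternatives. In LC against BC the same 2 genes had log2 fold changes of 0.19 for Derl3 and -0.57 for Creb3l2, and neither passed there. The 13 members that separated LC from BC had log2 fold changes from -0.41 to 1.11 in TLC against TBC, and none passed.

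Hybrid cells, sorted after ablation, were compared with the other populations. Marker sums of other cell types were also high in THC. The 8 fibroblast markers summed to 869 and 1934 CPM there and to 106 to 609 CPM in the other libraries. Of these, Col1a1, Col1a2, Col3a1, Lum and Dpt had their highest mean in THC. Dcn was highest in LC (271 CPM, with 105 in THC). Pdgfra and Pdgfrb were highest in BC (60.4 and 30.5 CPM, with 27.9 and 29.9 in THC). The 10 endothelial markers summed to 674 and 672 CPM in THC against 107 to 469 CPM. The 9 leukocyte markers summed to 342 and 143 CPM in THC against 47.9 to 103 CPM elsewhere, though Cd68 had its highest mean in BC and Cd3e in LC. The 10 milk secretion genes summed to 1776 and 2393 CPM in THC and 155 to 1999 CPM in the other libraries, which overlap. Their part in the THC values was not tested. Against TBC 0 of 35 members passed edgeR's test, where 2.57% of all genes were higher and 1.14% lower (3.72% in all), and 2 members had an unadjusted p under 0.05, against 3380 of all 19757 genes. Those were Creb3l2, at 136 and 147 CPM in THC against 233 and 240.2 CPM in TBC (log2 fold change -0.74, adjusted p = 0.0698), and Derl3. Derl3 was at 6.96 and 3.37 CPM in THC against 0.95 CPM in both TBC libraries (log2 fold change 2.33, SE 0.69, adjusted p = 0.0949). DESeq2 called both, and edgeR called Derl3 without TLC replicate 2 (adjusted p = 0.0474). Over all genes, DESeq2 called 6.95% in THC against TBC. Against TLC 0 members passed by edgeR, where 1.52% of all genes were higher and 0.0911% lower (1.61% in all). DESeq2 also called 0 members there, and 3.96% of all genes. At an unadjusted p under 0.05 there were 2394 of all genes and 2 members, Creb3l2 (log2 fold change 0.60) and Derl3 (log2 fold change -1.40).

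Against BC, hybrid cells again gave 0 of 35 members by edgeR, where 5% of all genes were higher and 2.72% lower (7.71% in all). At an unadjusted p under 0.05 there were 11 of 35 members and 4857 of all 19757 genes, and the median log2 fold change was 0.40 against 0.01 over all genes. DESeq2 called 2, Dnajb11 and Derl3, edgeR without the low-count filter called 6, and edgeR called Derl3 alone when either TLC library was left out (adjusted p = 0.0472 and 0.0418). Over all genes, DESeq2 called 11.1% in this comparison and edgeR without the low-count filter called 7.75%. Dnajb11 was at 50.3 and 37.2 CPM in THC against 24.1 and 21.1 CPM in BC (log2 fold change 0.94, adjusted p = 0.0597). Creld2 gave 26.3 and 18.4 CPM against 10.4 and 12.0 CPM (log2 fold change 0.97, adjusted p = 0.0665). For Ddit3 the levels were 21.3 and 25.05 CPM in THC against 49.5 and 36.1 CPM in BC (log2 fold change -0.87, adjusted p = 0.0862). The order of Derl3 means was TLC 12.9, THC 5.16, LC 1.24, BC 1.03 and TBC 0.95 CPM. Neighbours among the last 3 differ by less than 1 SD of the libraries, and TLC and THC have overlapping libraries.

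The replicates of each population differed in a way that touched many members. Replicate 1 lay above replicate 2 in all 5 populations for 13 of 35 members, where 8.45% of all genes did so. The reverse held for 0 members and 9.99% of all genes. The mean log2 difference had a median of 0.30 over the members and -0.05 over all genes. Hspa5 differed most, by 0.90 in TBC, 0.94 in THC, 0.95 in LC, 1.14 in TLC and 1.42 in BC. That spread within populations is of the size of its difference between LC and BC. Dnajb9 differed by 0.57 to 1.17, Atf4 by 0.51 to 0.88, Manf by 0.49 to 0.79 and Xbp1 by 0.43 to 0.66. The degradation genes Sel1l, Derl1, Derl2 and Edem1 had mean differences of -0.05, 0.06, -0.15 and 0.05. Replicate 1 libraries carry the numbers 44 to 48 and replicate 2 libraries 80 to 84. The labels do not say what these numbers mark, and their part in the differences was not tested.

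**Figure D4:**
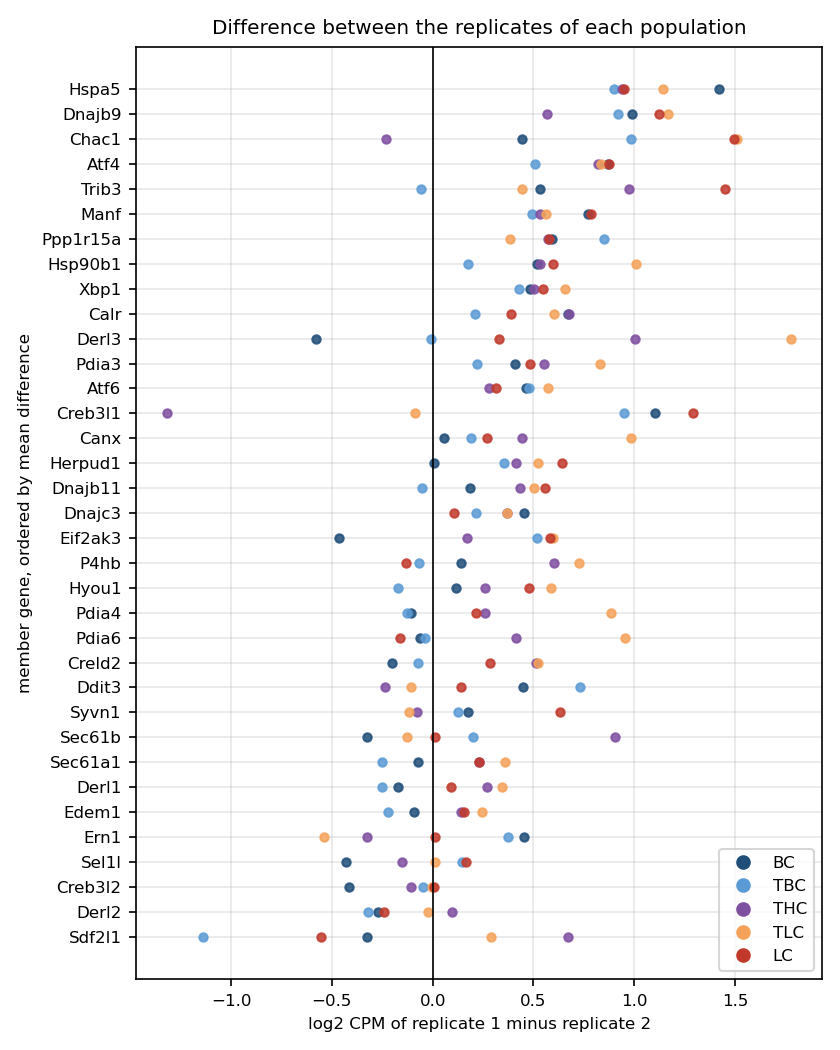
Log2 CPM of replicate 1 minus replicate 2 (x axis) for each member (y axis, ordered by the mean difference), with 1 point per population. All 5 points lie right of 0 for 13 members, with Hspa5 at the top, and for no member do all 5 lie left of 0.

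Other genes of the same pathways, 124 in 6 lists of which 121 were tested, were read against the same background, 11.5% of all genes higher and 12.5% lower in LC than in BC. In 4 of the 6 lists the share called higher was near or below it, and it was above it for COPII genes and stress regulators. In LC against BC, edgeR called 2 higher of 24 translocation, signal peptidase and glycosylation genes, with Spcs2 of the signal peptidase at 1.13 on the log2 scale (adjusted p = 0.00656) and Rpn2 of the oligosaccharyltransferase at 0.84 (adjusted p = 0.0227). Of 17 further degradation genes 2 were higher, the ubiquitin-conjugating enzyme gene Ube2g2 at 1.18 and the p97 cofactor gene Nploc4 at 0.65. Of 16 stress regulators 4 were higher and none lower, among them Traf2, which links IRE1 to kinase signalling, at 1.07 and Tmbim6, an inhibitor of ER stress death, at 0.91. Of 22 genes of COPII vesicles and ER-Golgi cycling 4 were higher and 2 lower. The coat genes split, with Sec23b at 1.19 and Sec24d at -1.01. Of 20 folding enzymes 2 were higher and 2 lower, and the lower were the prolyl isomerases Fkbp7 at -2.68 and Fkbp11 at -1.98. The list medians ran from 0.18 to 0.40, against -0.04 over all genes.

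Among 22 further ATF4 and CHOP targets, 3 were higher and 3 lower in LC than in BC, a share near that of all genes, of which 24% were called. Nupr1, a stress-induced chromatin protein, was at 34.2 and 24.0 CPM in BC and 486 and 383 CPM in LC (log2 fold change 3.91, edgeR adjusted p = 1.72e-05). Stc2, a secreted glycoprotein, was at 28.7 and 46.9 CPM in BC and 429 and 904 CPM in LC (log2 fold change 4.13, adjusted p = 6.69e-05). Aldh1l2, a mitochondrial folate enzyme, was at 27.0 and 50.7 CPM in BC and 2.27 and 2.44 CPM in LC (log2 fold change -4.04, adjusted p = 2.67e-05).

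In TLC against LC the list had Nupr1 lower at 70.0 and 82.5 CPM (log2 fold change -2.51, edgeR adjusted p = 0.00123) and Stc2 lower at 87.9 and 155 CPM (log2 fold change -2.45, adjusted p = 0.00449). Vldlr, a lipoprotein receptor, was higher at 34.7 and 33.6 CPM against 8.33 and 16.0 CPM (log2 fold change 1.48, adjusted p = 0.0103). Of the other lists, 2 genes were called in this comparison, the thioredoxin-domain gene Txndc11 and the ER membrane gene Wfs1, both lower at -0.77 and -1.20. In THC against TBC, the only genes called in the 6 lists were Nupr1 at 2.76 and Stc2 at 2.75 (adjusted p = 0.00182 and 0.00583), both higher. In TBC against BC and in THC against TLC no gene of the 6 lists was called by edgeR. Unlike these target genes, no member passed in THC against TBC, and the difference between the lists was not tested.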

How the data were processed

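Sorted mouse mammary cells were profiled by RNA-seq (Ovation Solo libraries on an Illumina sequencer, per the labels' protocols), 10 libraries in 5 populations. The deposited values are raw counts of reads per Ensembl gene, 1 table per library. STAR and HTSeq and the builds GRCm38 and mm10 are named in the submitters' processing notes. The sources used here do not give versions, annotation release or strand setting. HTSeq's summary lines name no gene and were kept out of totals and tests. Of the gene, no-feature, ambiguous and multiply aligned reads together, 12.6% (THC replicate 1) to 30.8% (TLC replicate 2) had no feature and 14.6% (TBC replicate 2) to 43.0% (THC replicate 1) were not uniquely aligned.

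Of 49671 identifiers, 49412 matched GENCODE M21. Genes were filtered with filterByExpr, scaled by TMM and tested with edgeR 4.0.16 (limma 3.58.1, R 4.3.3) in 1 quasi-likelihood model with a coefficient per population, 5 residual degrees of freedom and a common dispersion of 0.0715. Benjamini-Hochberg adjustment ran over all 19757 genes tested, with calls at 0.05. CPM use TMM-scaled totals, and 3 counts corresponded to 0.202 to 1.16 CPM. The chi-square per degree of freedom between the replicates of a population was 18.1 to 32.4, far beyond sampling noise. The procedure was tested on simulated data. Alternatives were other size factors, DESeq2 1.42.0, other filters, a block and leaving out each library. Exons of 12 members overlap another gene.

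The 35 members and all lists were chosen with earlier results of these data known. All members could be named, with up to 3 called genes per other list and comparison, by adjusted p, and any marker. Promoter windows are RefSeq's.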

Additional observations from a re-analysis of the deposited data

How the results depend on the processing

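Single member values tried under the alternatives kept direction and side of the threshold in 670 cases, lost a call in 72 and gained one in 30. In 7 cases a member that did not pass changed sign. Leaving out 1 library at a time, the log2 fold change of Atf4 in LC against BC, 0.10 with all libraries, ran from -0.41 (without LC replicate 1) to 0.60 and was -0.27 without BC replicate 2. In TLC against LC, Hsp90b1 (-0.20) ran from -0.79 to 0.22 and Pdia3 (-0.17) from -0.64 to 0.19, both negative except without LC replicate 1 (0.13 and 0.09) or TLC replicate 2, and Atf4 (-0.50) ran from -0.98 to 0.0033. Leaving out 1 library at a time gave 5 to 16 called members in LC against BC, 1 to 3 in TLC against LC, 0 to 1 in THC against TBC, 0 to 1 in THC against BC and 4 to 13 across the 5 populations. In TBC against BC, THC against TLC and the interaction it gave 0, and in TLC against TBC 2. Without the low-count filter the counts were 1 in TBC against BC, 5 in TLC against LC, 2 in THC against TBC, 6 in THC against BC, 3 in the interaction and 19 across the populations; the cause was not tested. DESeq2 gave 2 in THC against TBC, 2 in THC against BC, 2 in the interaction and 18 across the populations, the cause again not tested. For the alternative counts across the populations, and for the interaction without the filter, the share of all genes is not given here. Those counts thus have no background. Over all genes, DESeq2 called 6.95% in THC against TBC and 11.1% in THC against BC. Without the low-count filter edgeR called 1.14% of all genes in TBC against BC and 7.33% in TLC against LC. It called 5.27% in THC against TBC and 7.75% in THC against BC.

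No label says that the library-number series pairs libraries, so the numbers were not taken as pairs in the main model. The correlation of deviations between populations was -0.01 to 0.42 over 10 pairs, above 0.1 in 8. Libraries of a series thus deviated together for most pairs of populations, and the main model leaves this in the spread between replicates. With the series as a replicate block the counts were 20 in LC against BC, 0 in TBC against BC, 7 in TLC against LC, 3 in THC against TBC, 0 in THC against TLC, 9 in THC against BC, 3 in TLC against TBC, 3 in the interaction and 23 across the populations. The block also raised the share of all genes called. It went from 24% to 29.5% in LC against BC and from 8.22% to 12.8% in TLC against LC. In THC against TBC it went from 3.72% to 7.64% and in THC against BC from 7.71% to 14.2%. In TLC against TBC it went from 13.6% to 18%. For the interaction and across the populations, the share under the block is not given here. Under the block Hspa5 passed in LC against BC (adjusted p = 0.00422 by edgeR) and in TLC against LC (0.00859).

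With 2 libraries per population and 5 residual degrees of freedom, a member that did not pass is not shown to be equal. Chac1, Derl3, Trib3 and Sdf2l1 rest on few counts in some libraries, THC replicate 1 above all.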
